A study of Rattus norvegicus with 6 samples.

Results

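Leukocyte marker genes were followed in the outer part of the kidney (renal cortex) of rats given the brominated anthraquinone 1-amino-2,4-dibromoanthraquinone (ADBAQ). The 39 genes are a list of known markers of white blood cells: 5 mark all leukocytes, 8 T cells, 2 cytotoxic lymphocytes, 2 B cells, 18 macrophages and other mononuclear phagocytes, and 4 granulocytes. Probes were assigned by transcript accession. Of the 39 genes, 37 had a matched probe, and 35 were detected well enough to be tested, among 12007 genes tested in all. Cd5 and Cd163 lay below the detection filter, and no probe was matched to Ms4a1 or Itgax.

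All 6 rats were male Sprague-Dawley (Crl:CD(SD)) animals with no genetic alteration named in the labels, 5 weeks old at purchase and kept on a basal diet. For 4 weeks, 3 rats received corn oil, the vehicle, and 3 received ADBAQ at 1000 mg/kg/day. RNA from the whole cortex was hybridised to Agilent 1-colour arrays, with 1 array per rat. No leukocytes were isolated, so every value is from bulk tissue, where fewer cells of a type and less RNA per cell cannot be told apart.

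Leukocytes reach the kidney with the blood, and the healthy cortex also holds resident macrophages and dendritic cells between the tubules. T cells recognise antigen through a receptor that signals through the CD3 chains, and macrophages engulf debris and make complement and cytokines. Monocytes and neutrophils enter injured tissue by following chemokines and by adhering through integrins. None of these genes is exclusive to its cell type in a kidney: Ccl2, for example, is also made by tubule cells.

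The 75th percentile of the signal was 1126 to 1177 on the corn oil arrays and 1279 to 1307 on the ADBAQ arrays. Between 69.0% and 72.3% of probes stood well above background. Values below are relative signals, with the 75th percentile of each array set to 100. They compare the same probe between arrays and do not rank genes by abundance. The corn oil arrays lay on 1 slide read in 1 scan and the ADBAQ arrays on a second slide and scan, so neither can be told apart from treatment. Differences are ADBAQ minus corn oil on the log2 scale, and the median over all genes was -0.01. The tissue label was checked with 10 renal cortex genes, among them Aqp1, Slc34a1 and Umod, which were well above background on every array. No list for the inner part of the kidney was read, so the share of cortex in each sample was not tested. Of 8 red cell genes tested, all 8 were higher on every ADBAQ array than on any corn oil array, against 12.7% of all genes. Alas2, the first enzyme of haem synthesis in red cells (1.61 ± 0.09 SE, adjusted p = 0.0065), Hbb (1.04 ± 0.08), Hemgn (1.07 ± 0.08) and Rhd (1.54 ± 0.13) rose in limma's test with Benjamini-Hochberg adjustment. The summed relative signal of the red cell list was 16770 to 18430 in corn oil and 33130 to 38460 in ADBAQ, and no red cell gene was at 0. Its part in the leukocyte values was not tested.

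No leukocyte marker passed the threshold. In limma's test with Benjamini-Hochberg adjustment over 12007 genes, 0 of 35 had an adjusted p under 0.05, where 0.291% of all genes did (0.225% higher and 0.0666% lower). At an unadjusted p under 0.05, 8 markers were higher after ADBAQ and 0 were lower, against 8.94% and 10.5% of all genes. In 9 markers all 3 ADBAQ arrays lay above all 3 corn oil arrays, against 12.7% of all genes, and in 0 they lay below, against 14.8% (27.6% in either direction). The markers were chosen with earlier results of these data known, so a count above these shares is no independent support. The 9 were Cd52 and Cd53 of the general markers, Adgre1, Itgam, Itgb2, Ccl2 and Il1b of the macrophage markers, and Camp and Csf3r of the granulocyte markers. Itgam was tested only because its signal was detected in the ADBAQ group. Requiring all 6 arrays to be well above background left Itgam out. Of the 34 markers then tested, 8 separated higher, against 12.7% of all genes. At an unadjusted p under 0.05, 7 were higher, against 8.98% of all genes. Over the 35 markers 22 differences were positive and 13 negative, with a median of 0.12.

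Medians by lineage ranged from -0.16 to 0.46, and the difference between lineages was not tested. Granulocyte markers had a median difference of 0.46, with 4 of 4 positive, and 0.31 with normexp background correction. Macrophage markers had a median of 0.11, with 12 of 16 positive, and general leukocyte markers a median of 0.15, with 4 of 5 positive. The macrophage median was 0.049 without ADBAQ replicate 3, and 0.092 with the filter on all 6 arrays, which leaves Itgam out. The general median was 0.034 without corn oil replicate 1 and 0.28 without corn oil replicate 2. T cell markers had a median of -0.16, with 6 of 7 negative. Without scaling between arrays this median was -0.00010, where the median of all genes was 0.15. Both cytotoxic markers were negative, and 3 of these T cell and cytotoxic genes (Cd4, Lck and Gzmb) turned positive without scaling. The median difference over all 12007 genes, of which 5728 were positive and 6279 negative, stands beside these medians as the background.

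**Figure D1:**
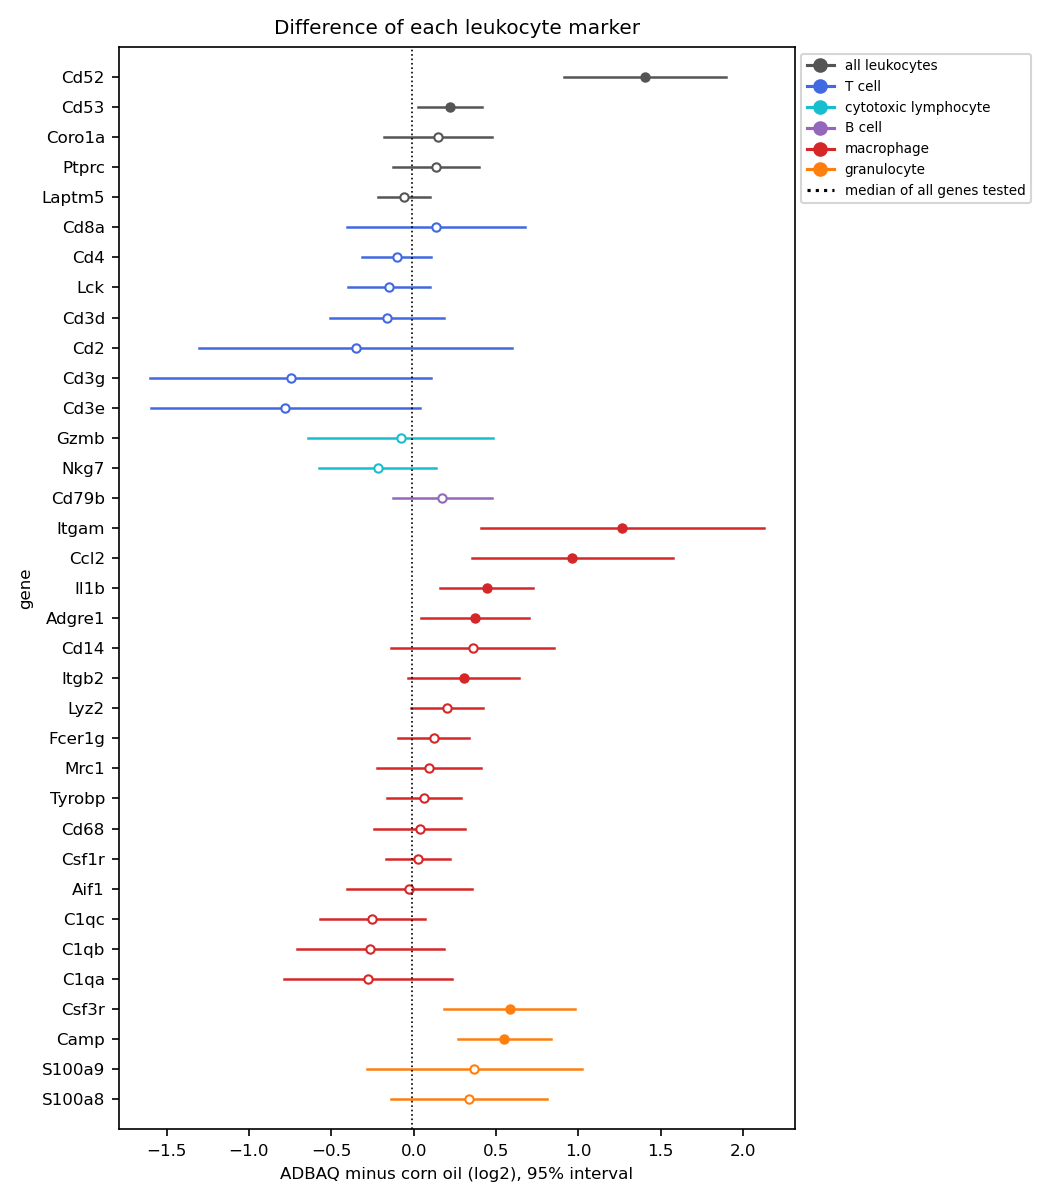
Difference of each of the 35 tested markers between ADBAQ and corn oil (horizontal axis, log2 scale) with its 95% interval from limma, coloured by lineage and listed by gene on the vertical axis. Filled circles mark the 9 genes whose groups do not overlap, all to the right of the dotted line, which is the median of all genes (-0.01).

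Cd52 had the largest difference of the 35 markers. It encodes a small glycoprotein anchored in the membrane of lymphocytes and monocytes. Its relative signal was 29.5, 24.1 and 22.8 on the corn oil arrays and 50.7, 81.5 and 72.6 on the ADBAQ arrays. Every ADBAQ array was well above every corn oil array, and ADBAQ 1 was the lowest of its group. The difference was 1.40 ± 0.20 (SE, n = 3 per group), or 2.65-fold, with a 95% interval of 0.91 to 1.90 and an adjusted p of 0.064 in limma's test. Without ADBAQ replicate 1 the difference was 1.60 and the adjusted p 0.046. Leaving out any other single array gave an adjusted p of 0.12 to 0.21 by limma. The promoter of Cd52 is shown because the gene has the largest difference of the set and, in contrast to Itgam and Csf3r below, no match to the myeloid motif described there. It covers the 250 bases before the gene start, 5′ to 3′ on the gene's strand, from RefSeq on build GRCr8 at chr5:151605097-151605346, minus strand. The array probes were designed on another build, so this window is not tied to a probe.
Cd52: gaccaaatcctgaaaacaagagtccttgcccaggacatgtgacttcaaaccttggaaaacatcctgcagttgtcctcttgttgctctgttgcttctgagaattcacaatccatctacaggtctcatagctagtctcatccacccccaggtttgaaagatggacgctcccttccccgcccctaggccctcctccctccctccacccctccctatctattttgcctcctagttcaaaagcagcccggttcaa

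The other general markers lay closer to the corn oil values. Cd53, a tetraspanin of leukocyte membranes, read 161, 192 and 176 in corn oil and 207, 207 and 202 in ADBAQ. The groups did not overlap, and the ADBAQ arrays were nearly equal, at a difference of 0.22 ± 0.08 (SE, adjusted p = 0.21 by limma). Ptprc, the CD45 phosphatase carried by all nucleated blood cells, read 79.2, 101 and 94.4 in corn oil and 93.9, 104.6 and 101.6 in ADBAQ. Its groups overlapped with this probe (0.13 ± 0.11, adjusted p = 0.52). Of its 5 probes, 4 gave positive differences of up to 0.29 and 1 gave -0.0092. With the mean of the probes the groups did not overlap (0.16, adjusted p = 0.26 by limma). Coro1a, an actin-binding protein of leukocytes, read 449 to 641 in corn oil and 577 to 602 in ADBAQ (0.15 ± 0.13). Laptm5, a lysosomal membrane protein of blood cells, read 900.5 to 1002 and 886.2 to 923.1 (-0.060 ± 0.064), and its sign turned without scaling. The log2 signal of Cd52 minus that of Ptprc was -1.43, -2.07 and -2.05 in corn oil and -0.89, -0.36 and -0.48 in ADBAQ. That difference within an array does not depend on scaling, and the groups did not overlap. This pair and the others below were chosen after their values were seen, so no p is given.

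**Figure D2:**
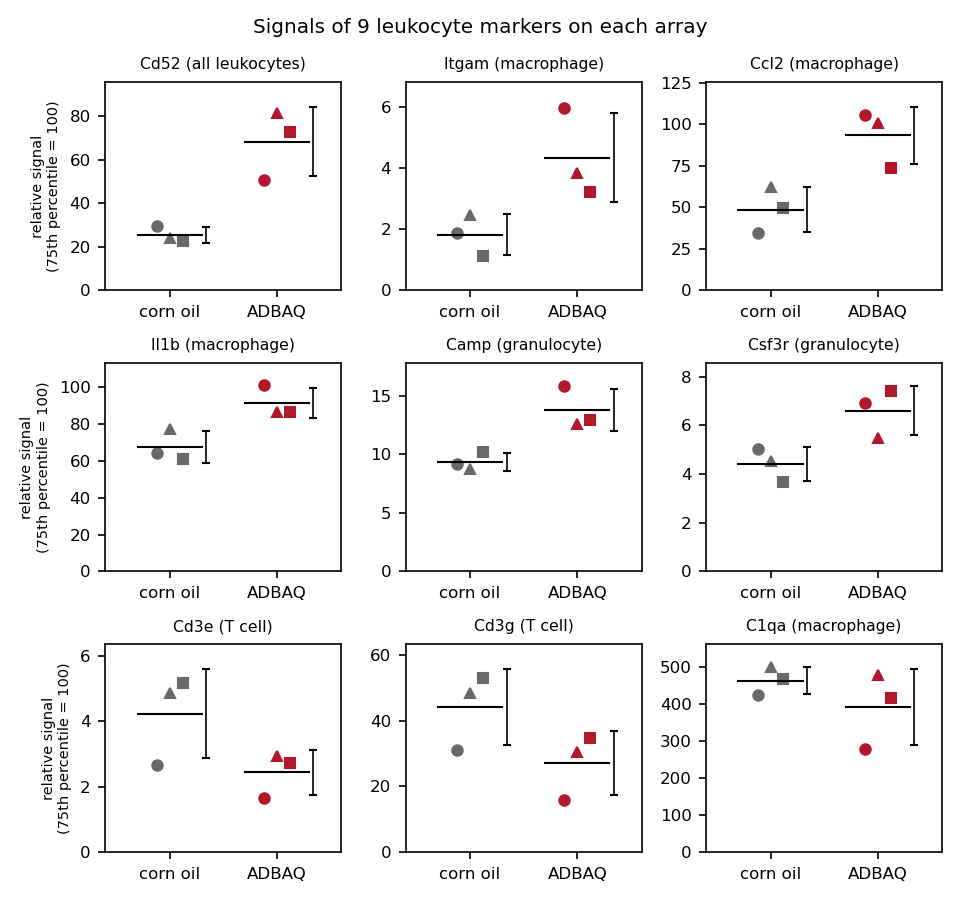
Relative signal (vertical axis, 75th percentile of each array at 100) of 9 leukocyte markers in the corn oil and ADBAQ groups (horizontal axis), with circles, triangles and squares for replicates 1, 2 and 3, a bar for the mean and a line for the SD. Cd52 lies between 22.8 and 29.5 in corn oil and between 50.7 and 81.5 in ADBAQ, while the groups of Cd3e, Cd3g and C1qa overlap.

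Differences of T cell markers were mostly negative, with overlapping groups in all 7. The CD3 chains, which carry the signal of the T cell receptor and lie side by side in the genome in the order Cd3g, Cd3d and Cd3e, all had negative differences, and Cd3e and Cd3g had the lowest of the T cell markers. Cd3e read 2.68, 4.87 and 5.17 in corn oil and 1.66, 2.93 and 2.74 in ADBAQ. Cd3g read 31.2, 48.4 and 52.9 in corn oil and 16.1, 30.4 and 34.6 in ADBAQ. Cd3d read 93.5, 109 and 124 in corn oil and 83.4, 103 and 105 in ADBAQ. In all 3 genes corn oil 1 was the lowest corn oil array and overlapped the ADBAQ arrays, and ADBAQ 1 was the lowest of all. The differences were -0.78 ± 0.33 for Cd3e (SE, 95% interval -1.60 to 0.04, adjusted p = 0.27 by limma), -0.75 ± 0.35 for Cd3g (adjusted p = 0.31) and -0.16 ± 0.14 for Cd3d (adjusted p = 0.56). With normexp background correction they were -0.35, -0.69 and -0.048, and without ADBAQ replicate 1 the difference of Cd3g was -0.41. Cd3e lay near background: its unscaled signal was 21.7 on ADBAQ 1, where the lowest signal well above background was 18.8. Against Ptprc of the same array, Cd3g was -1.34, -1.06 and -0.84 in corn oil and -2.55, -1.78 and -1.55 in ADBAQ, with no overlap. Cd3e against Ptprc was -4.89, -4.37 and -4.19 in corn oil and -5.82, -5.16 and -5.21 in ADBAQ, also without overlap. Both separations hold for the Ptprc probe that stood for the gene and depend on that choice. With another Ptprc probe as the reference, corn oil 1 fell within the ADBAQ range for Cd3g and for Cd3e, so the groups overlapped. The promoter of Cd3e is shown for the T lineage, with the motif described below in capitals; it lies on build GRCr8 at chr8:54211771-54212020, minus strand, and is taken from RefSeq.
Cd3e: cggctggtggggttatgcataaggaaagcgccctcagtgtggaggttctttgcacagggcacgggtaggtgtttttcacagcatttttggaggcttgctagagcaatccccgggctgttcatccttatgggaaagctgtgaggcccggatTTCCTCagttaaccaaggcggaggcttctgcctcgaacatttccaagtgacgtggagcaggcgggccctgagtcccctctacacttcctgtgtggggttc

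The co-receptors Cd4 and Cd8a, which bind antigen-presenting molecules of class II and class I, showed no common direction. Cd4, which rat macrophages also carry, read 18.6, 17.1 and 15.4 in corn oil and 16.1, 16.1 and 15.1 in ADBAQ (-0.10 ± 0.09). Cd8a read 4.35, 6.43 and 5.88 in corn oil and 4.78, 5.94 and 7.63 in ADBAQ (0.13 ± 0.22). Both pairs of groups overlapped. Cd2, an adhesion receptor of T and natural killer cells, read 2.31, 4.23 and 5.70 in corn oil and 2.26, 2.84 and 4.18 in ADBAQ (-0.35 ± 0.39). Lck, the kinase that starts signalling from the co-receptors, read 6.34 to 7.70 and 5.72 to 6.59 (-0.15 ± 0.10). Adjusted p-values of these 4 genes by limma lay between 0.45 and 0.77. Cd5, an inhibitory receptor, was well above background on 2 of 3 corn oil arrays and 1 of 3 ADBAQ arrays and was not tested. Its readings were 1.86, 2.01 and 3.76 against 1.52, 2.68 and 1.96. In the T cell list corn oil 1 was the lowest corn oil array for 6 of 7 genes and ADBAQ 1 the lowest ADBAQ array for 5 of 7, where those arrays were lowest for 38.0% and 40.6% of all genes.

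Cytotoxic and B cell markers were few. Nkg7, a granule membrane protein of killer cells, read 96.1, 128 and 95.5 in corn oil and 96.1, 80.1 and 96.8 in ADBAQ (-0.22 ± 0.14, adjusted p = 0.45 by limma). Gzmb, the protease granzyme B, read 8.98, 12.3 and 6.62 in corn oil and 8.85, 7.63 and 9.18 in ADBAQ (-0.079 ± 0.23, adjusted p = 0.87). In both genes corn oil 2 was the highest array, and the groups overlapped. Cd79b, a signalling chain of the B cell receptor, read 5.20, 5.24 and 4.42 in corn oil and 4.84, 5.73 and 6.24 in ADBAQ (0.17 ± 0.12, adjusted p = 0.47). It was the only B cell marker tested of the 2 listed, so the B lineage rests here on 1 gene.

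Among macrophage markers the integrin Itgam and the chemokine Ccl2 had the largest differences. Itgam encodes CD11b, which pairs with Itgb2 to form the complement receptor and adhesion molecule of monocytes and neutrophils. It read 1.89, 2.46 and 1.14 in corn oil and 5.97, 3.84 and 3.21 in ADBAQ, and was well above background on 1 of 3 corn oil arrays and 3 of 3 ADBAQ arrays. The groups did not overlap. The difference was 1.27 ± 0.35 (SE, 2.41-fold in fitted values, adjusted p = 0.16 by limma), and 1.21 with the dim corn oil arrays set at their detection floor. With normexp background correction it was 0.22 (adjusted p = 0.31), so its size at this low signal depends on the background correction. Itgb2 read 58.2, 51.9 and 61.8 in corn oil and 84.7, 66.8 and 62.0 in ADBAQ (0.30 ± 0.14, adjusted p = 0.29). ADBAQ 3 exceeded corn oil 3 only narrowly, and the difference was 0.17 without ADBAQ replicate 1. Ccl2, which draws monocytes from the blood, read 34.6, 62.1 and 49.4 in corn oil and 106, 101 and 73.9 in ADBAQ. Every ADBAQ array was higher than every corn oil array, and the difference was 0.96 ± 0.25 (1.95-fold, adjusted p = 0.14).

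The promoter of Itgam is shown with that of Il1b because both genes, by the probe that stood for each, were higher on every ADBAQ array. Their promoters differ in a myeloid motif. That motif, GAGGAA or TTCCTC on the other strand, is the core of sites bound by PU.1, the product of Spi1 and a regulator of myeloid genes. Its GGAA is shared by other ETS proteins. Matches are in capitals. Windows are the 250 bases before the gene start, from RefSeq on GRCr8: Itgam at chr1:192089342-192089591, plus strand, and Il1b at chr3:137036582-137036831, minus strand.
Itgam: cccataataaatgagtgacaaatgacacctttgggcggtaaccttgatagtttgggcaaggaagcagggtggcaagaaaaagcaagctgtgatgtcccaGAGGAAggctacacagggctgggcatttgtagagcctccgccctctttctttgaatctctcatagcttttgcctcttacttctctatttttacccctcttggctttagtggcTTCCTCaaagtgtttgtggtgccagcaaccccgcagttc
Il1b: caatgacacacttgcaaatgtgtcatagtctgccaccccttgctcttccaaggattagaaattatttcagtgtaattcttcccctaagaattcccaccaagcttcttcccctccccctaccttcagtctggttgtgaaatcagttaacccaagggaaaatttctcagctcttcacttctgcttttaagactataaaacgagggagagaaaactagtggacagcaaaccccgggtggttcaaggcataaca

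Itgam held 2 matches, Cd3e 1, and Il1b and Cd52 0. Promoters were found in RefSeq for 29 of the 39 markers. The motif occurred in 8 of 12 macrophage markers, 2 of 3 granulocyte markers, 3 of 5 general markers, 3 of 7 T cell markers and 0 of 2 cytotoxic markers. Of all 33469 promoter windows of the same length, 7812 (23.3%) held it. Among the 9 markers whose groups did not overlap, Ccl2 and Itgb2 have no entry. A match is a description of the letters in this window, not evidence of a bound factor.

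Il1b, the gene of the cytokine interleukin-1 beta, read 64.2, 77.0 and 60.7 in corn oil and 101, 86.5 and 86.6 in ADBAQ (0.44 ± 0.12, adjusted p = 0.14 by limma), and its other probe gave a difference of 0.20. Adgre1, which encodes F4/80 of tissue macrophages, read 93.8, 90.3 and 75.5 in corn oil and 128, 112 and 96.9 in ADBAQ (0.37 ± 0.13, adjusted p = 0.22). With these probes neither gene's groups overlapped. The other Il1b probe read 41.6 on corn oil 2, above 40.7 and 36.5 on ADBAQ 2 and 3, so its groups overlapped. With the mean of its probes Il1b did not separate the groups either. Cd14, the co-receptor for bacterial lipopolysaccharide, read 45.2, 77.7 and 56.4 in corn oil and 79.6, 68.3 and 76.5 in ADBAQ (0.36 ± 0.20), with corn oil 2 inside the ADBAQ range. Lyz2, lysozyme, read 8556, 7708 and 7181 against 9569, 8455 and 8889 (0.20 ± 0.09), with corn oil 1 above ADBAQ 2.

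The complement C1q chains, made by resident macrophages and lying together in the genome, were the macrophage markers with the lowest differences. C1qa read 426, 501 and 468 in corn oil and 279, 480 and 418 in ADBAQ. C1qb read 994.8, 1142 and 1093 in corn oil and 675.5, 1015 and 1049 in ADBAQ. C1qc read 137, 161 and 153 in corn oil and 106, 142 and 133 in ADBAQ. For each chain ADBAQ 1 was well below the other arrays, while ADBAQ 2 and 3 lay near or within the corn oil range. The differences were -0.28 ± 0.21, -0.26 ± 0.18 and -0.25 ± 0.13 (SE, adjusted p by limma 0.50, 0.46 and 0.34), and without ADBAQ replicate 1 they were -0.049, -0.059 and -0.13. With these probes the low values of C1qa and C1qb rested on that rat. Another C1qb probe read 986, 1191 and 1102 in corn oil and 709.9, 973.2 and 985.6 in ADBAQ (-0.31), narrowly without overlap. Among the 16 macrophage markers tested, ADBAQ 1 was the highest array of its group for 8 and the lowest for 8.

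The remaining macrophage markers showed small values. Csf1r, the receptor for the growth factors Csf1 and Il34 that keep macrophages alive, read 56.0 to 63.2 in corn oil and 56.5 to 63.4 in ADBAQ (0.027 ± 0.078). Cd68, a lysosomal glycoprotein, Mrc1, the mannose receptor, Aif1, an actin-binding protein, and the adaptors Tyrobp and Fcer1g had differences of 0.036, 0.092, -0.028, 0.063 and 0.12. All 6 had overlapping groups, and their adjusted p-values by limma were 0.48 or more. The 95% interval of Csf1r was -0.17 to 0.22, but its other probe gave a difference of 0.31 and the mean of both 0.17. Cd163, the receptor that clears haemoglobin bound to haptoglobin, was well above background on 1 corn oil array and 0 ADBAQ arrays and was not tested.

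**Figure D3:**
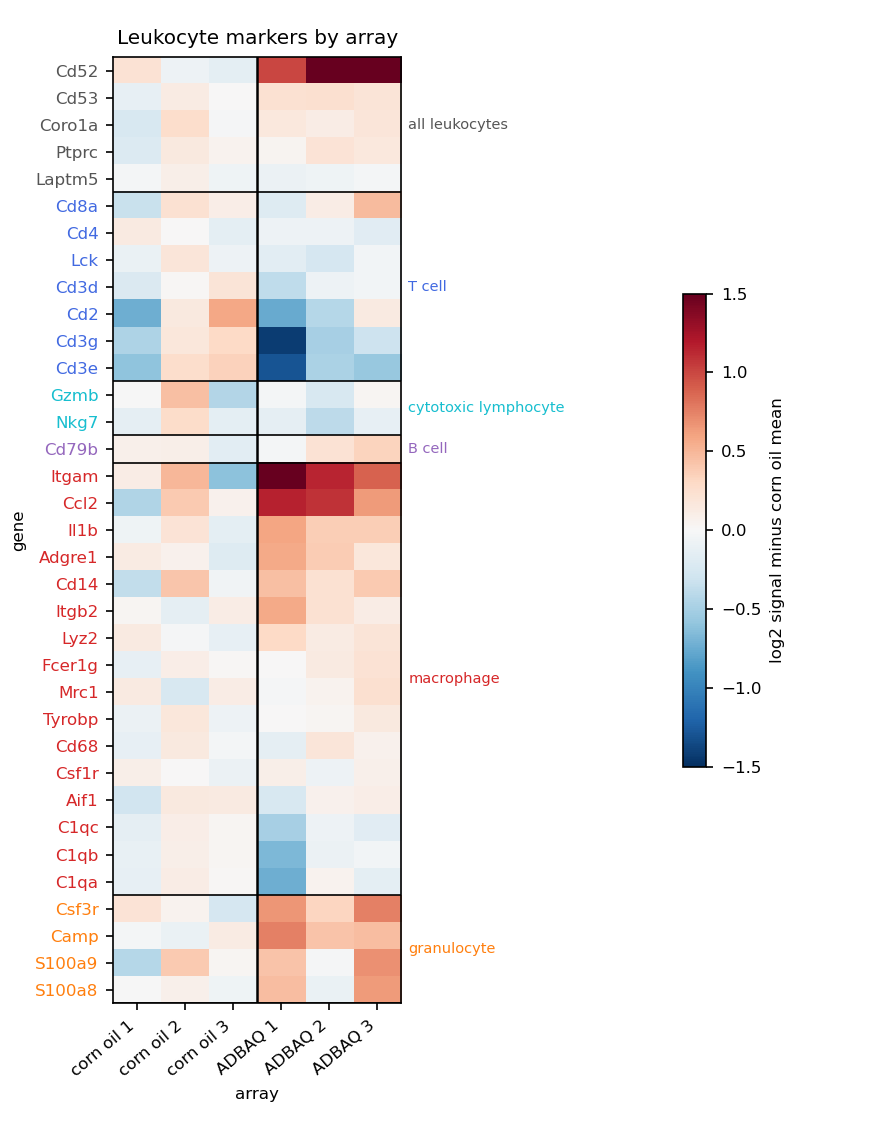
Log2 signal of the 35 tested markers (rows, by lineage) on each of the 6 arrays (columns), relative to the corn oil mean of the gene, with the colour limited to 1.5 in either direction. Itgam, Ccl2, Cd52, Camp and Csf3r are above the corn oil mean on all 3 ADBAQ arrays, while the CD3 chains are lowest on ADBAQ 1.

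Granulocyte markers were all higher in the mean after ADBAQ, and Camp and Csf3r separated the groups. Camp, the antimicrobial peptide cathelicidin of neutrophil granules, read 9.16, 8.75 and 10.2 in corn oil and 15.9, 12.6 and 12.9 in ADBAQ. Csf3r, the receptor for granulocyte colony-stimulating factor, read 5.03, 4.53 and 3.68 in corn oil and 6.93, 5.48 and 7.40 in ADBAQ. Neither gene's groups overlapped. The differences were 0.55 ± 0.11 for Camp (SE, 1.47-fold, adjusted p = 0.12 by limma) and 0.58 ± 0.16 for Csf3r (adjusted p = 0.16), which was 0.24 with normexp background correction. S100a8 and S100a9, neighbouring genes whose proteins form calprotectin of neutrophils and monocytes, did not separate the groups. S100a8 read 19.8, 21.1 and 19.0 in corn oil and 27.7, 18.7 and 31.1 in ADBAQ (0.34 ± 0.19, adjusted p = 0.39, and 0.13 with normexp). S100a9 read 27.2, 48.2 and 37.3 in corn oil and 49.3, 36.1 and 59.0 in ADBAQ (0.37 ± 0.27, adjusted p = 0.48). ADBAQ 2 was the lowest ADBAQ array for all 4 granulocyte markers, where it was lowest for 28.5% of all genes. The promoter of Csf3r, at chr5:143582970-143583219 on the plus strand of GRCr8, holds 1 match to the motif above, and is shown because the gene is the granulocyte marker with the largest difference.
Csf3r: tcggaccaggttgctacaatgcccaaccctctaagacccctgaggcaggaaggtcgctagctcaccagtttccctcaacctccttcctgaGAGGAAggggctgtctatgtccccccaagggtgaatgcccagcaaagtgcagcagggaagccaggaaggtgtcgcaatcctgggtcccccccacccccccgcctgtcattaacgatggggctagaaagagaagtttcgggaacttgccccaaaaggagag

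**Figure D4:**
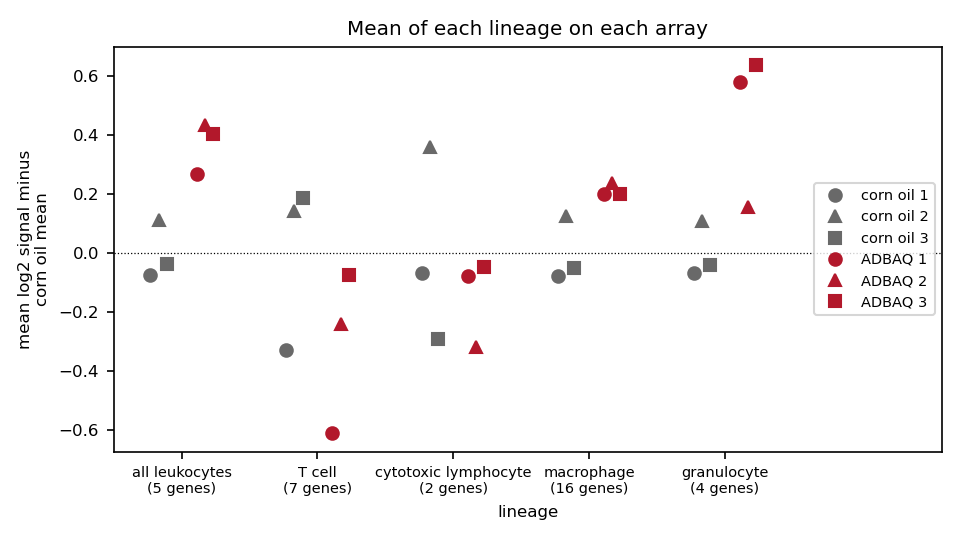
Mean log2 signal minus the corn oil mean (vertical axis) of each lineage (horizontal axis) on each array, with grey for corn oil, red for ADBAQ and circles, triangles and squares for replicates 1, 2 and 3; the B lineage, with 1 gene, is left out. ADBAQ lies at 0.27 to 0.44 for the general markers and 0.20 to 0.24 for macrophage markers, both above corn oil, but without Cd52 the general markers lie at 0.085 to 0.13 and without Itgam the macrophage markers at 0.096 to 0.18, both overlapping corn oil 2.

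The means of the general and macrophage lists rested in part on 1 gene each, as seen when that gene was left out after the values were known. Without Cd52 the mean of the general markers was 0.085, 0.12 and 0.13 on the ADBAQ arrays, all below corn oil 2 at 0.16, and the mean difference was 0.11 in place of 0.37. Without Itgam the mean of the macrophage markers was 0.096, 0.18 and 0.16 on the ADBAQ arrays against 0.10 on corn oil 2, and the mean difference was 0.14 in place of 0.21. Within single arrays, the mean log2 signal of granulocyte markers minus that of T cell markers was 0.35, 0.05 and -0.14 in corn oil and 1.28, 0.48 and 0.79 in ADBAQ. These values do not depend on scaling, and the groups did not overlap. The 2 lists have the highest and lowest lineage medians in these same data, so the separation is no independent support. ADBAQ 1 had the widest gap, with T cell markers at a mean of -0.61 and granulocyte markers at 0.58 relative to the corn oil mean.

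Other genes of the same lineages, which are no part of the 39, were taken from a wider list of 153, also chosen with earlier results of these data known. Of these, 51 could not be tested. At an unadjusted p under 0.05, 13 were higher and 11 lower, against 8.94% and 10.5% of all genes. Of the other leukocyte genes tested, 0 passed the adjusted threshold. Their median difference was 0.05, with 60 positive. Among 19 other T cell genes the median was -0.23. At an unadjusted p under 0.05, 1 was higher and 3 lower, against the same shares of all genes. Cd247, the zeta chain that signals with the CD3 chains, read 24.9, 26.5 and 28.4 in corn oil and 16.2, 16.7 and 18.0 in ADBAQ. The groups did not overlap, with a difference of -0.65 ± 0.08 (SE, adjusted p = 0.053 by limma). Zap70, the kinase recruited to those chains, read 37.7, 50.5 and 43.4 in corn oil and 28.2, 37.9 and 32.8 in ADBAQ (-0.41 ± 0.15, adjusted p = 0.22), with a small overlap. Foxp3, the factor of regulatory T cells, had a difference of 0.24 ± 0.08 (adjusted p = 0.21).

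Among 7 other cytotoxic genes the median was -0.14. Gzmk, a granzyme, had -0.56 ± 0.18, Tbx21, a factor of killer and helper T cells, 0.16 ± 0.07, Prf1, perforin, -0.24 ± 0.24 and Ccl5, a chemokine of killer cells, -0.077 ± 0.14, with adjusted p-values by limma of 0.19, 0.31, 0.61 and 0.79. The Tbx21 probe read 5433 to 6372 in corn oil and 6488 to 6524 in ADBAQ, while Prf1 read 36.99 to 65.55 in corn oil. Whether that probe reads Tbx21 alone in this tissue was not tested. Among 9 other B cell genes the median was 0.17. The B cell genes Vpreb3 and Cd22 had -0.59 ± 0.11 (adjusted p = 0.093) and 0.56 ± 0.22 (adjusted p = 0.24), in opposite directions, and no probe was matched to Cd79a. Of 15 other general leukocyte genes the median was 0.09. Itgal, the CD11a chain that also pairs with Itgb2, had 0.41 ± 0.08 (adjusted p = 0.10), and the kinase Lyn 0.21 ± 0.07 (adjusted p = 0.21).

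Among 23 other macrophage genes, 6 were higher and 2 lower at an unadjusted p under 0.05, against 8.94% and 10.5% of all genes. Their median was 0.13. Siglec1, the sialic acid receptor of resident macrophages, read 16.7, 10.2 and 13.7 in corn oil and 5.34, 6.0 and 6.02 in ADBAQ (-1.20 ± 0.18, adjusted p = 0.071 by limma). Clec7a, the receptor for fungal glucans, read 5.29, 6.89 and 6.13 in corn oil and 9.47, 9.71 and 9.83 in ADBAQ (0.67 ± 0.10, adjusted p = 0.072). Neither gene's groups overlapped, and the directions were opposite. The oxidase subunit Cybb, Spi1 and the chemokine receptor Cx3cr1 had differences of 0.17, 0.14 and -0.14, with adjusted p-values of 0.39, 0.53 and 0.69. Ccr2, the receptor for Ccl2, was below the detection filter.

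Other granulocyte and mast cell genes numbered 24, of which 8 were tested. At an unadjusted p under 0.05, 0 were higher and 2 lower, against 8.94% and 10.5% of all genes. The 2 were the mast cell tryptases Tpsb2 (-0.48 ± 0.08, adjusted p = 0.080 by limma) and Tpsab1 (-0.18 ± 0.06, adjusted p = 0.19). Cxcr2, the chemokine receptor of neutrophils, was below the filter, and no probe was matched to Mpo, the peroxidase of neutrophil granules. Of 21 attractant and adhesion genes the median was 0.06. Il34, the other Csf1r ligand and a product of tubule cells, read 2576, 2543 and 2377 in corn oil and 1690, 1648 and 1916 in ADBAQ, with no overlap (-0.51 ± 0.08, adjusted p = 0.072). Csf1 had 0.046 ± 0.071. Il1rn, the antagonist of interleukin-1, had 0.49 ± 0.12 (adjusted p = 0.13). The adhesion molecules Icam1 and Vcam1 and the chemokines Cx3cl1 and Cxcl12 had 0.056, -0.14, -0.044 and 0.11, with adjusted p-values of 0.61 to 0.85.

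Lists of other tissues were read on the same arrays. The summed relative signal of 5 fat cell genes was 193.6 to 268.1 in corn oil and 150.7 to 218.9 in ADBAQ, and none differed at an unadjusted p under 0.05; Cidec, a lipid droplet protein, had -0.66 ± 0.61 and the hormone Adipoq -0.18 ± 0.19. That of 4 platelet genes was 148.8 to 182.9 and 167.7 to 267.7; the receptor Treml1 had 0.58 ± 0.07 (adjusted p = 0.055 by limma) and the chemokine Pf4 0.64 ± 0.35. That of 10 renal cortex genes was 146000 to 157500 and 130300 to 142400; the water channel Aqp1 had -0.44 ± 0.11 (adjusted p = 0.14) and the anion transporter Slc22a6 -0.16 ± 0.07. The platelet and fat cell sums overlapped between groups, and the renal cortex sums did not. Their part in the leukocyte values was not tested.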

How the data were processed

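Total RNA of renal cortex from 6 rats, which the labels describe as separate animals, was labelled with Cy3 and read on 1-colour arrays. Per the file headers, the authors' spots were quantified with Feature Extraction 10.7.1.1 from Agilent (given as 10.7 by the submitters' processing notes). The deposited values used were the background-subtracted processed signal intensity, the median signal and background intensities, and flags (another unit) for control, outlier and well above background. In the value matrix that the authors deposited, each array's signals are a linear ratio to a constant of that array, uncentred. The origin of that constant is not given in the sources. Corn oil columns had medians of 0.110, 0.113 and 0.112, and ADBAQ columns 0.113, 0.114 and 0.111.

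Control spots (1319) and outlier probes (73) were left out. Each array's 75th percentile was subtracted from its signals on the log2 scale. Unversioned accessions were matched to RefSeq genes (GRCr8, symbols and gene order only): of 61657 probes 27460 (44.5%) matched 1 gene, 0 several and 34197 none. To be tested, a gene needed a probe detected above background throughout one group or both (3 arrays each), and the passing probe with the highest mean stood for it. The comparison used lmFit and eBayes of limma 3.58.1 (R 4.3.3), two-sided, with Benjamini-Hochberg adjustment over all 12007 genes at 0.05. Scripts also used the R package data.table (version 1.17.8), pandas 2.3.3 and matplotlib 3.10.9 in Python 3.11.15, and were tested on simulated data. Precision is limited by having 3 arrays in a group.

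The members and lists were chosen with earlier results of these data known. Named besides all members were, in each other list, genes past the threshold, the 2 of lowest p and a fixed set. Genes outside this rule are said to be so. Alternatives were normexp on median signals (offset 50, mean signals not being used here), quantile or no scaling, the authors' table, 2 other filters, the mean of a gene's probes, an intensity trend with robust variances, a replicate block and leaving out each array. Leaving Cd52 or Itgam out of a list mean was added after seeing the data.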

Additional observations from a re-analysis of the deposited data

How the results depend on the processing

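Over all genes, 27 were higher and 8 lower. These counts were 67 and 78 with normexp, 1027 and 54 without scaling, 72 and 84 when the variance model took an intensity trend and was robust, and 4 lower without the filter on dim probes. Leaving out 1 array gave 11 to 25 higher (corn oil 1 left out 11, corn oil 2 16, corn oil 3 14, ADBAQ 2 12) and 3 to 10 lower (corn oil 1 or ADBAQ 2 left out 3, ADBAQ 1 5). Without scaling the median difference of all genes was 0.15, so counts there carry that shift. Of the markers, 0 passed; 1 was higher with normexp (Cd52), 1 with the intensity trend (Cd52), 4 without scaling (Cd52, Cd53, Il1b and Camp), and 0 to 1 when an array was left out (Cd52 without ADBAQ replicate 1). Over all alternatives the adjusted p of Cd52 by limma ran from 0.031 to 0.21. At an unadjusted p under 0.05, 8 markers were higher and 0 lower. Without scaling 15 were higher (31.1% of all genes), and with an array left out 6 to 9 were (5.83% to 8.74% of all genes). With normexp 3 were lower (Cd3e, Cd3g and Cd4, against 13.2% of all genes), and with quantile normalization 1 was (Cd3e, against 9.01%). With an array left out 0 to 2 were lower (2 without corn oil 1, 1 without ADBAQ 3), against 7.33% to 10.4% of all genes. Groups did not overlap for 9 higher and 0 lower: without scaling 14 were higher (38.0% of all genes), with normexp 4 were lower (Cd3e, Cd4, Nkg7 and C1qb; 16.8% of all genes), and with an array left out 9 to 12 were higher (15.6% to 18.6% of all genes) and 0 to 7 lower. The 7 were Cd2, Cd3d, Cd3e, Cd3g, Aif1, C1qb and C1qc without corn oil replicate 1, where 22.5% of all genes did so, and 2 markers were lower without corn oil 3, ADBAQ 2 or ADBAQ 3 (19.7%, 18.9% and 21.9% of all genes). The cause of these changes was not tested.

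Deviations of same-numbered arrays correlated at 0.0094, 0.16 and 0.035, and those of differently numbered arrays at -0.16 to 0.13. Not every array correlated best with its own number. Whether replicate numbers pair the rats cannot be told from so few correlations, and the main fit used no pairing. With the replicate number as a block, limma called 0 genes higher and 0 lower, 2266 genes had an unadjusted p under 0.05, and 3 markers were lower at that level (Cd3e, Cd3g and C1qc; 10.3% of all genes).

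Lineage medians with 1 array left out ran from 0.034 to 0.28 (general), -0.27 to -0.15 (T cell), -0.29 to 0.033 (cytotoxic, positive without corn oil 2), 0.049 to 0.16 (macrophage) and 0.35 to 0.59 (granulocyte). Differences that changed sign were all small. With normexp these were Ptprc (-0.012), Cd8a (-0.025) and Cd68 (-0.072). Without scaling these were Laptm5 (0.10), Cd4 (0.058), Lck (0.012), Gzmb (0.084) and Aif1 (0.14). With the mean of a gene's probes these were Mrc1 (-0.025) and Aif1 (0.020), and with quantile normalization Aif1 (0.017). With 1 array left out, Cd8a ran from -0.040 to 0.30, Gzmb from -0.30 to 0.14, Cd68 from -0.040 to 0.12, Csf1r from -0.020 to 0.080, Mrc1 from -0.031 to 0.16 and Aif1 from -0.17 to 0.078. Of 14 markers with more than 1 tested probe, 9 had all probes on one side of zero and 5 on both (Aif1, Fcer1g, Gzmb, Mrc1 and Ptprc). Signal over background limits Itgam, Cd5 and Cd163 most, and Cd3e and Cd2 also lay near background.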

Other observations

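Some genes outside the 39 markers and outside the rule for named genes were picked after their values were seen. Lilrb4, an inhibitory receptor of myeloid cells, read 11.5, 7.03 and 9.95 in corn oil and 23.9, 19.6 and 15.8 in ADBAQ. The groups did not overlap, at 1.07 ± 0.23 (SE, adjusted p = 0.12 by limma). Fcgr2b, an inhibitory receptor for antibodies, read 22.0, 19.8 and 19.1 against 29.2, 29.7 and 34.8 (0.62 ± 0.10, adjusted p = 0.073). Both were higher on every ADBAQ array, while Cyba, an oxidase subunit also present in other cells, was lower on every one (-0.35 ± 0.09, adjusted p = 0.15).

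Cxcl1, a chemokine that attracts neutrophils, read 9.31, 7.01 and 6.32 in corn oil and 13.7, 13.9 and 10.5 in ADBAQ, with no overlap (0.76 ± 0.18, adjusted p = 0.13 by limma). Cd27, a co-stimulatory receptor of T cells, read 7.48, 15.4 and 15.0 against 4.60, 6.52 and 7.99 (-0.95 ± 0.34, adjusted p = 0.22). As for the CD3 chains, corn oil 1 was the lowest corn oil array for Cd27 and overlapped the ADBAQ arrays.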
